A study of Mus musculus with 144 samples.

Results

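The comparison covers single microglia sorted 2 days after optic nerve crush and single microglia from uncrushed retina, in wells that were sequenced deeply. Wells with 50000 or more reads were kept, and wells in which the neutrophil genes S100a8 and S100a9 both reached 1000 reads per 1000000 reads (RPM) were dropped. This left 57 of the 144 wells of the series: 19 of 36 wells at day 2 (8, 4 and 7 on plates 1, 2 and 3) and 38 of 54 uncrushed wells (10, 15 and 13). Both groups were retinal cells of Iba1-EGFP mice on a C57BL/6 background aged 20 to 22 months, given either no treatment or nerve crush. The EGFP transgene follows the Iba1 gene, which is active in microglia and also in other macrophages. The lowest deep well held 60079 reads and the highest shallow well 14205. The lower of the 2 neutrophil genes was at 6150 to 43557 RPM in the dropped wells, which were 6 at day 2 and 1 uncrushed, and at 205 RPM or less in the kept wells.

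No animal is named in the labels, so each group is 1 sample, and no test, p-value or standard error is given. SDs are over wells, intervals cover counting error only, and agreement over the 3 plates is given in place of replicates. A read here is the most frequent value above 0 of a well, and 35.6% of values up to 20 reads in the kept wells came within 0.01 of a whole number, so part of the counts are fractions. On every plate the uncrushed wells lay in rows A to C and the day 2 wells in rows D and E, so group and row cannot be told apart.

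Microglia are the resident macrophages of the retina. At rest they survey the tissue with fine processes and express a set of identity genes that includes the purinergic receptor gene P2ry12 and the CSF1 receptor gene. After injury to the nerve they can enlarge, divide, take up debris and signal through chemokines and interferon-stimulated genes. Crush of the optic nerve cuts the axons of the retinal ganglion cells, whose cell bodies lie in the retina that was sampled.

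Nearly all kept wells carried several microglia markers, with at least 3 in all 19 day 2 wells and in 37 of 38 uncrushed wells. Of 11 microglia markers a median of 9 (5 to 11) reached 10 reads in a day 2 well and a median of 8 (2 to 11) in an uncrushed well. C1qb and Ctss reached 10 reads in all 57 wells, P2ry12 in 13 of 19 day 2 and 22 of 38 uncrushed wells, and Tmem119 in 10 of 19 and 16 of 38. Aif1, the Iba1 gene, reached 10 reads in 18 of 19 and 24 of 38, and Fcrls in 5 of 19 and 3 of 38. The monocyte markers Ly6c2, Vcan, Fn1 and Ms4a4c, all T and NK cell markers and all endothelial markers reached 10 reads in no well. The other monocyte markers each reached 10 reads in at least 1 well. The summed level of all 10 monocyte markers had a median of 670 RPM at day 2 (0 to 4190). In uncrushed wells it was 39.3 RPM (0 to 16857). At least 3 of 12 neutrophil markers were present in 3 day 2 and 2 uncrushed wells, at a summed level of at most 1638 RPM, and at least 3 of 13 rod markers in 0 and 4 wells. At least 3 markers of monocytes were present in 0 and 1 wells, of border macrophages in 0 and 1, and of Muller glia and astrocytes in 1 and 2. All of these wells were kept. The wells with neutrophil or rod markers were left out as an alternative, and the others were not.

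Wells also differed in how many genes they held. Day 2 wells held a median of 787377 reads (94800 to 8065036) and 4853 genes with a read (2085 to 9207). Uncrushed wells held 494741 reads (60079 to 2347721) and 3048 genes (1381 to 7711). When every well was thinned to 50000 reads the medians were 1754 and 1180 genes. By plate the day 2 medians were 5387.5, 2467.5 and 3245 genes and the uncrushed medians 3031, 3311 and 2935, so day 2 was the lower group on plate 2. More genes per well raise the mean of many genes at once, and whether larger cells, better captured cells or another cause gave them was not tested.

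**Figure D1:**
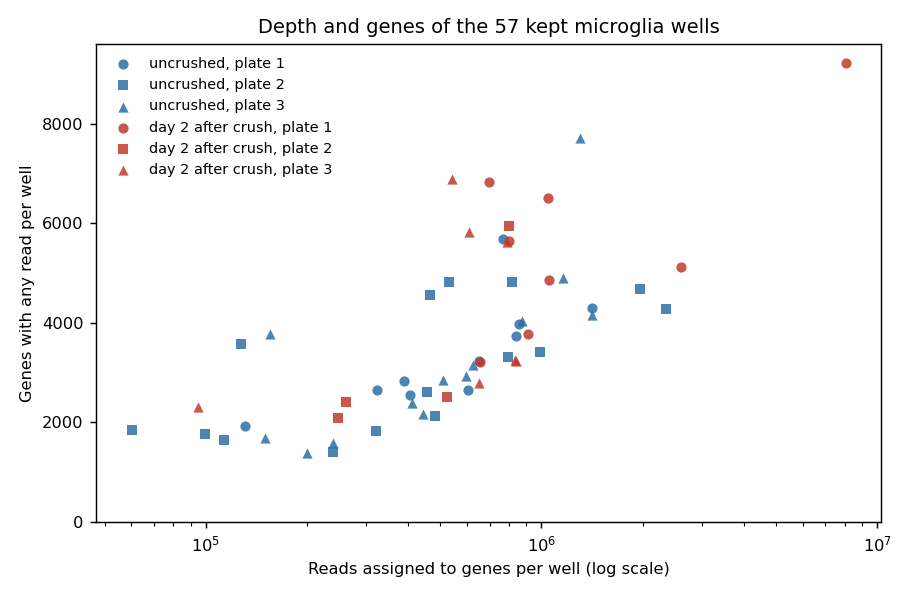
Reads assigned to genes (x, log scale) against the number of genes with any read (y) in each of the 57 kept wells, coloured by group and shaped by plate. The day 2 wells reach 9207 genes and the uncrushed wells 7711, and the ranges of both groups overlap on both axes.

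Most genes were higher at day 2. The difference used throughout is the mean of log2(RPM + 1) over day 2 wells minus that over uncrushed wells, and 2878 genes passed a detection rule of 10 or more reads in at least 25% of the wells of 1 group. Their median difference was 1.16 (1.62, 0.43 and 0.83 within plates 1, 2 and 3), and 2573 of them (89.4%) were above 0. A difference of 2 or more with the same sign on every plate was found for 439 genes, 15.3% of those that passed. A difference of -2 or less was found for 6 genes, 0.208%. The median share of wells in which a gene reached 10 reads was 42.1% at day 2 and 21.1% in uncrushed retina. The rule lets a gene pass through the group in which it is frequent: 1646 of the 2878 genes passed through day 2 alone, and these hold 301 of the 439 higher genes. The 1232 genes that passed in uncrushed wells had a median of 0.73 and 138 higher genes. Over all 21239 genes with any read in a kept well the median difference was 0.07, with 61.1% above 0. Since the pseudocount is 1 RPM, a gene absent from many wells gives a large difference, and with a pseudocount of 10 RPM the count of higher genes was 65. It was 210 when the log2 ratio of mean RPM was used. Many genes named here overlap another gene in the annotation (Ccna2 with Exosc9, Dek with Kdm1b, Gapdh with Iffo1, Tpi1 with Spsb2, Aldoa with Fam57b, Psmc3 with Slc39a13, Ctsz with Nelfcd, Atp5md with Taf5, Nisch with Tnnc1 and Rhoa with Tcta). With the strand setting not given, their reads cannot be fully told apart. Values below are read against the median of 1.16, with shares of wells beside them.

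The 15 highest named genes had a range of roles. Bag1, a co-chaperone of heat shock proteins (chromosome 4, 40936398 to 40948294 in GRCm38, minus strand), had the highest difference of the named genes. It was at 0 to 9775 RPM at day 2, with a median of 509, and at 0 to 1183 RPM in uncrushed wells, with a median of 0. It reached 10 reads in 13 of 19 day 2 wells (68.4%, exact Clopper-Pearson 95% interval 43.4 to 87.4) and in 5 of 38 uncrushed wells (13.2%, 4.41 to 28.1). All 8 day 2 wells of plate 1 held it, against 2 of 4 on plate 2 and 3 of 7 on plate 3. Its mean was 7.08 ± 4.42 (SD over 19 wells) against 1.46 ± 2.82 (SD over 38 wells), a difference of 5.62 with 8.48, 5.31 and 2.25 within the plates. The ranges overlapped, and for most genes named here the same held: some day 2 wells lay at or near 0, and some uncrushed wells were high.

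Hint1, which encodes a nucleotide-binding hydrolase, was at 0 to 2182 RPM at day 2 (median 432) and 0 to 2032 in uncrushed wells (median 0). Its difference was 5.17 (5.93, 6.96 and 3.43 within the plates), with 13 of 19 against 6 of 38 wells. Jpt1, a microtubule-associated protein gene, differed by 5.10, nearly evenly over the plates (5.26, 5.78 and 5.26). It was at 0 to 13080 RPM (median 314) at day 2 and 0 to 3953 (median 0) in uncrushed wells, and reached 10 reads in 12 of 19 (63.2%, 38.4 to 83.7) against 4 of 38 wells (10.5%, 2.94 to 24.8). In the wells that held them, the median levels of Hint1 were 616 RPM at day 2 and 596 RPM in uncrushed retina, and those of Jpt1 were 661 and 981 RPM. For both genes the groups differed in how many wells held the transcript, while the levels in those wells lay close together for Hint1 and were lower at day 2 for Jpt1.

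Psma7, a core subunit of the proteasome, differed by 4.90 (5.87, 3.63 and 4.62), and Eif5a, a translation factor, by 4.55 (5.82, 4.32 and 3.52). Eif5a was at a median of 1000.1 RPM at day 2 and 3.91 RPM in uncrushed wells, with maxima of 4600 and 2681 RPM. A pair of inhibitors of small GTPases was among the highest genes. Arhgdia differed by 4.50 (5.95, 1.95 and 5.18) and Arhgdib by 4.37 (4.40, 6.15 and 3.42), and Arhgdib reached 10 reads in 16 of 19 day 2 wells and 16 of 38 uncrushed wells. Pde6h, at 4.08, overlaps Arhgdib in the annotation and is otherwise a gene of cone photoreceptors, so its reads cannot be assigned with certainty. Rhoa, the GTPase that such inhibitors bind, was at 0.13 (0.75, 0.25 and -1.28), below the median of all genes.

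The rest of the 15 highest genes were Stmn1, Naaa, Ccl12, Anapc5, Hmgb2, Dpysl2 and Cst7. Naaa, a lysosomal amidase of lipid amides, differed by 4.41 (6.86, 1.83 and 3.76) and was held by 11 of 19 against 4 of 38 wells. Ccl12, a monocyte chemoattractant, had a read in every day 2 well and in most uncrushed wells, and reached 10 reads in 14 of 19 and 10 of 38. It was at 3.84 to 18065 RPM with a median of 792 at day 2, and at 0 to 7210 RPM with a median of 6.33 in uncrushed wells, a difference of 4.39 (6.60, 1.89 and 3.76). Anapc5, a subunit of the anaphase-promoting complex, was uneven over plates (3.86, 0.76 and 5.53). Dpysl2, a regulator of microtubules, differed by 3.90 (4.67, 3.57 and 2.37). The largest gains in the share of wells further included Nme2, a nucleoside diphosphate kinase gene that overlaps the model Gm20390 (15 of 19 against 9 of 38 wells), Atp5md, a subunit of ATP synthase (14 of 19 against 8 of 38), and Tle5, a transcriptional corepressor (11 of 19 against 3 of 38). Each gene named in this paragraph was above 0 on every plate, as the rule for naming the 15 highest required.

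**Figure D2:**
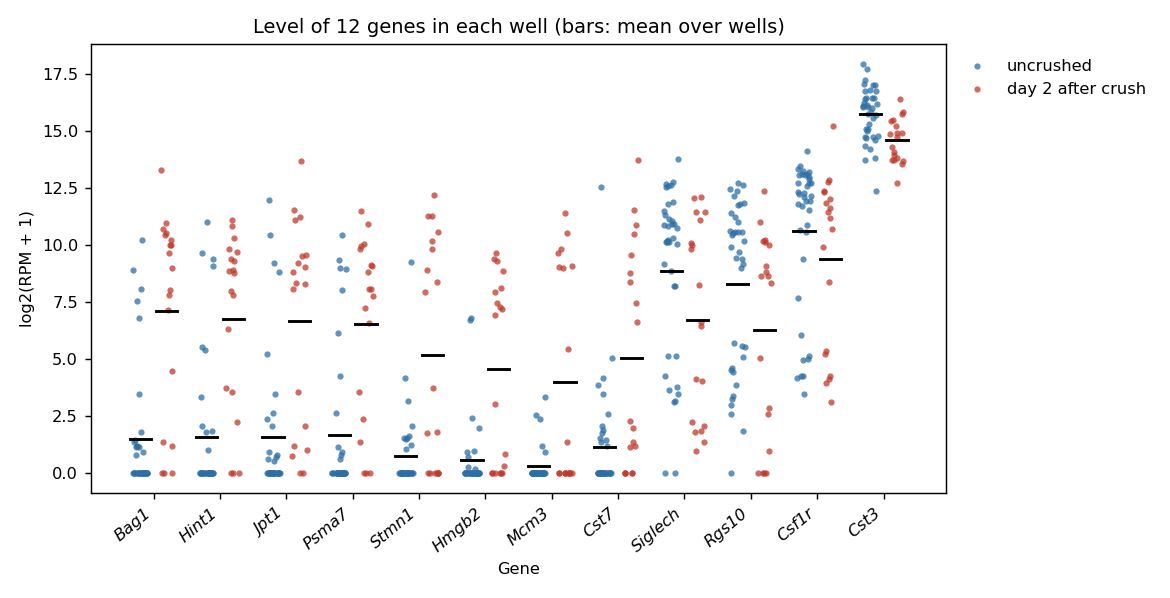
Level of 12 genes, as log2(RPM + 1), in each uncrushed well (blue, 38 wells) and each day 2 well (red, 19 wells), with a bar at the mean of each group. For Bag1 to Cst7 many uncrushed wells sit at 0 while the day 2 wells split between 0 and high levels, and for Cst3 every well of both groups is at 5170 RPM or more.

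**Figure D3:**
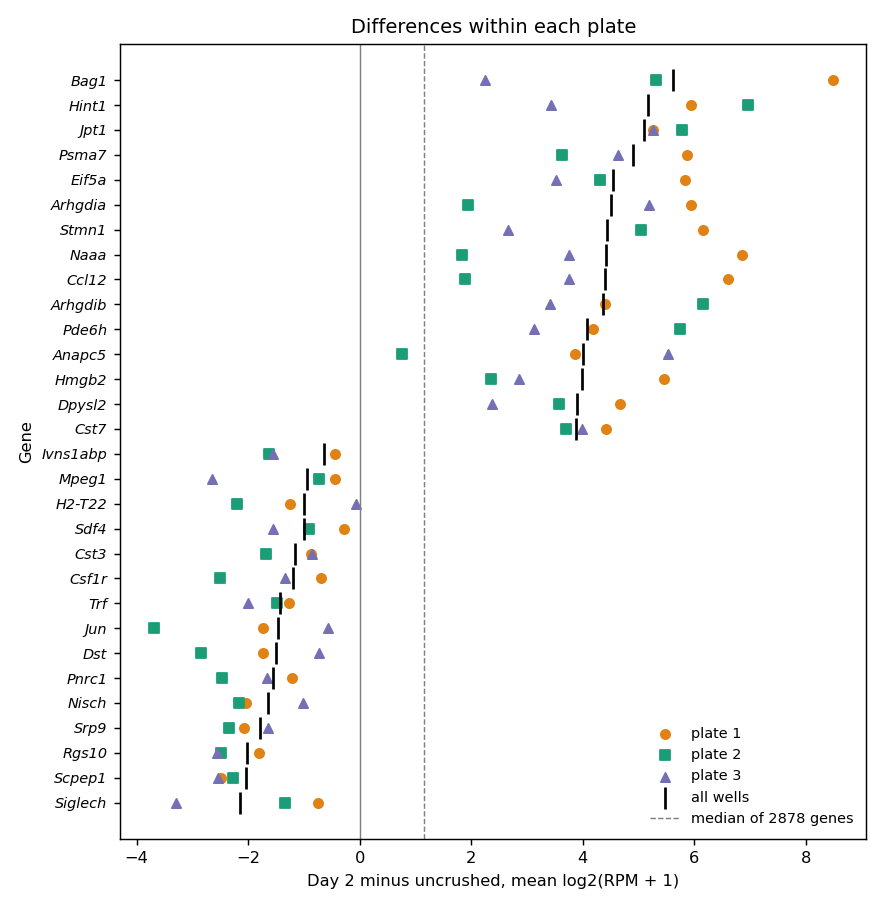
Day 2 minus uncrushed difference of the 15 highest and 15 lowest named genes (rows), within each plate (symbols) and over all wells (bars). The dashed line is the median of 1.16 over 2878 genes. Jpt1 and Cst7 lie close together on the 3 plates, while Bag1 runs from 2.25 to 8.48.

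Genes of DNA replication and of chromatin in dividing cells were higher over nearly all members. DNA replication is opened by the Mcm helicase and supplied with nucleotides by ribonucleotide reductase, and both are switched on as cells leave rest, chiefly by E2F transcription factors. Of 20 measured replication genes 19 were above 0 and 1 was below, with a median over all 20 of 1.46 (1.86, 0.86 and 0.95 within the plates). Over all genes that passed, 89.4% were above 0, with a median of 1.16 (1.62, 0.43 and 0.83). Only 8 of the 20 passed the detection rule, all but Rfc2 through day 2 alone, and 6 of these differed by 2 or more: Mcm3, Rrm1, Dut, Lig1, Fen1 and Mcm5. Their count is set against the background of 15.3% but cannot be read as support, because passing through day 2 alone makes a difference likely.

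Mcm3, a subunit of the replicative helicase (chromosome 1, 20802968 to 20820312, minus strand), had the highest difference of the replication genes with the same sign on every plate. At day 2 it was at 0 to 2643 RPM, with a median of 0, and in the 7 wells that held it at 10 reads its median was 789 RPM. No uncrushed well held it at 10 reads, and the highest uncrushed level was 8.81 RPM. That gave 7 of 19 wells (36.8%, 16.3 to 61.6) against 0 of 38, which allows a share of up to about 7.89%. The 7.89% is 3 divided by 38, an approximate bound, and not an exact interval as for the other shares. The 7 wells were spread as 4, 1 and 2 over the plates, and the difference was 3.69 (4.43, 2.12 and 3.88). The helicase genes Mcm4, Mcm5 and Mcm6 were at 1.87, 2.22 and 1.28 and likewise reached 10 reads in no uncrushed well. Mcm2 and Mcm7 were at 0.82 and 0.27.

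Rrm1, the large subunit of ribonucleotide reductase, was at 0 to 3050 RPM at day 2 (median 2.87) and 0 to 2263 in uncrushed wells (median 0). It was held by 8 of 19 against 1 of 38 wells and differed by 3.53 (4.18, 5.35 and 0.88). Dut, which keeps uracil out of DNA, differed by 2.85 (2.46, 5.56 and 1.17). The DNA ligase gene Lig1 and the flap nuclease gene Fen1 differed by 2.25 and 2.24 and were held by 26.3% and 31.6% of day 2 wells and no uncrushed well. Pcna, the sliding clamp, was even over plates (1.55, 1.55 and 1.51) but less far above the median of all genes. Rfc2, a subunit of the clamp loader, was at 3.98 but was negative on plate 2 (-1.55), and it overlaps Lat2, so its reads are uncertain.

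Promoters of these genes are shown because the replication genes were detected together in the same wells. The windows are the 250 bases before the start of transcription in RefSeq on GRCm38.p6, written 5′ to 3′ on the gene's strand. Capitals mark matches, on either strand, to the E2F-type motifs TTTCCCGC, TTTGGCGC, TTTCGCGC and TTTGCCGC, and adjoining capitals can hold overlapping matches. Mcm3 (chr1:20820313-20820562, minus strand), the leading gene, has no match in this window, while Mcm5 (chr8:75109259-75109508, plus strand) and Mcm6 (chr1:128359706-128359955, minus strand) do.
Mcm3: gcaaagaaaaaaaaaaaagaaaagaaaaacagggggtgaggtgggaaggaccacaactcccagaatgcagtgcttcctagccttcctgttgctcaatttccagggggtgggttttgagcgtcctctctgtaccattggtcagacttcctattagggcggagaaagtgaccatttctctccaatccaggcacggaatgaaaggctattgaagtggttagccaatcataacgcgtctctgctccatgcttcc
Mcm5: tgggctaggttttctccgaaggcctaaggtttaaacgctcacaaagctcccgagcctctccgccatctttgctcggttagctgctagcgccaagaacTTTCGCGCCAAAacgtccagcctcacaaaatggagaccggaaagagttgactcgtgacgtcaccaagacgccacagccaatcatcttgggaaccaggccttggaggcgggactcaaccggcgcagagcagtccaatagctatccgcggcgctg
Mcm6: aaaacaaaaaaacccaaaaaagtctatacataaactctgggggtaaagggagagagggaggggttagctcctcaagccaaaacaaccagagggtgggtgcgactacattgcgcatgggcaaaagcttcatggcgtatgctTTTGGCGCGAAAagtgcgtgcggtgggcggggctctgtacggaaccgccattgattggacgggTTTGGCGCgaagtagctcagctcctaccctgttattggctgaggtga
In Mcm5 the match TTTCGCGC begins at -153 and overlaps the match GCGCCAAA at -149, counted from the start of transcription. Of the 16 replication genes found in the promoter table, 4 (25%) held a match, against 2.16% of all 27025 genes in it. These were Mcm5, Mcm6, Mcm7 and Cdc6, at differences of 2.22, 1.28, 0.27 and -0.07. Of Mcm3, Rrm1, Dut, Lig1, Fen1 and Mcm5, which were past 2 with the same sign on every plate, only Mcm5 held a match. A match is a description of the letters and not a measured site.

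Mitosis genes followed in fewer wells. Of 20 measured genes of mitosis and chromosome segregation 19 were above 0, and the remaining gene had no read. Their median was 1.22, but it was 2.29, 0.41 and 0 within the plates. Over all genes that passed, the plates were at 1.62, 0.43 and 0.83, so the mitosis list lay above them on plate 1 only. Of all genes that passed 89.4% were above 0. Only 2 of the 20 mitosis genes passed. Ccna2, a cyclin of replication and mitosis, was held by 6 of 19 against 1 of 38 wells and differed by 2.25 (2.89, 2.37 and 1.78). The proliferation marker Mki67 and the topoisomerase gene Top2a, at 1.85 and 1.82, were each held by 21.1% of day 2 wells and no uncrushed well. Smc4, a condensin subunit, was at 0 to 1208 RPM at day 2 and at most 1.89 RPM in uncrushed wells. Ccnd1, the cyclin of entry into the cycle, differed by 2.23 (2.26, 2.45 and 2.09) with 6 of 19 against 1 of 38 wells.

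Among 20 genes of chromatin and microtubules that are abundant in cycling cells, 19 were above 0 and 1 had no read, with a median of 2.20 (3.55, 2.34 and 0.36). The 15 that passed had medians of 3.76, 2.67 and 0.49 within the plates. Over all genes that passed these were 1.62, 0.43 and 0.83, so on plate 3 the list lay below them. Of all genes that passed 89.4% were above 0. Stmn1, which destabilises microtubules (chromosome 4, 134468320 to 134473843, plus strand), was at 0 to 4695 RPM at day 2 (median 12.1) and 0 to 607 in uncrushed wells (median 0). It differed by 4.43 (6.15, 5.03 and 2.65), with 9 of 19 wells (47.4%, 24.4 to 71.1) against 1 of 38 (2.63%, 0.0666 to 13.8). Hmgb2, a chromatin protein of dividing cells, was at 0 to 801 RPM (median 118) against 0 to 110 RPM (median 0), a difference of 3.98 (5.45, 2.35 and 2.86). Dek, a chromatin-binding oncoprotein gene, differed by 3.11 (3.56, 3.38 and 2.29). The histone variant gene H2az1 differed by 3.15 but nearly all of it on plate 1 (6.81, 1.35 and 0.18).

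The replication transcripts were concentrated in a subset of the day 2 wells. At least 3 of the 20 replication genes reached 10 reads in 8 of 19 day 2 wells (42.1%, 20.3 to 66.5): 5 of 8 on plate 1, 1 of 4 on plate 2 and 2 of 7 on plate 3. The most in a well was 13. No uncrushed well held more than 2, so 0 of 38 wells met the rule, which allows up to 7.89% by the same approximate bound. At least 3 mitosis genes were held by 6 of 19 day 2 wells (31.6%, 12.6 to 56.6) and 0 of 38 uncrushed wells, and 5 wells met both rules. The richest well for mitosis held 19 of the 20 genes. It was also the deepest of all kept wells, with 8065036 reads and 9207 genes, so 10 reads were a lower level there than elsewhere.

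These 8 wells were also rich in genes, with a median of 5794.5 genes (4853 to 9207) against 3210 (2085 to 6836) in the other 11 day 2 wells. The lowest count of the 8 wells, 4853 genes, was used as a cut, so all 8 meet it by construction. Of the day 2 wells with at least 4853 genes, 8 of 10 held 3 or more replication genes. Only 3 uncrushed wells had that many genes, with 4892 to 7711, and they held 0 to 2 replication genes and at most 1 mitosis gene. The 8 wells held 8 to 11 microglia markers (median 10). All 3 day 2 wells with at least 3 neutrophil markers were among them, at a summed 77.2 to 827 RPM and with at least 8 microglia markers. Without wells of neutrophil or rod markers 5 of 16 day 2 wells and 0 of 32 uncrushed wells met the rule, and without plate 1 it was 3 of 11 and 0 of 28. At a single read in place of 10 the rule was met by 14 of 19 and 11 of 38 wells, so the separation rests on wells with many reads of these genes. After thinning to 50000 reads, at 1 read, it was 9 of 19 and 2 of 38.

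**Figure D4:**
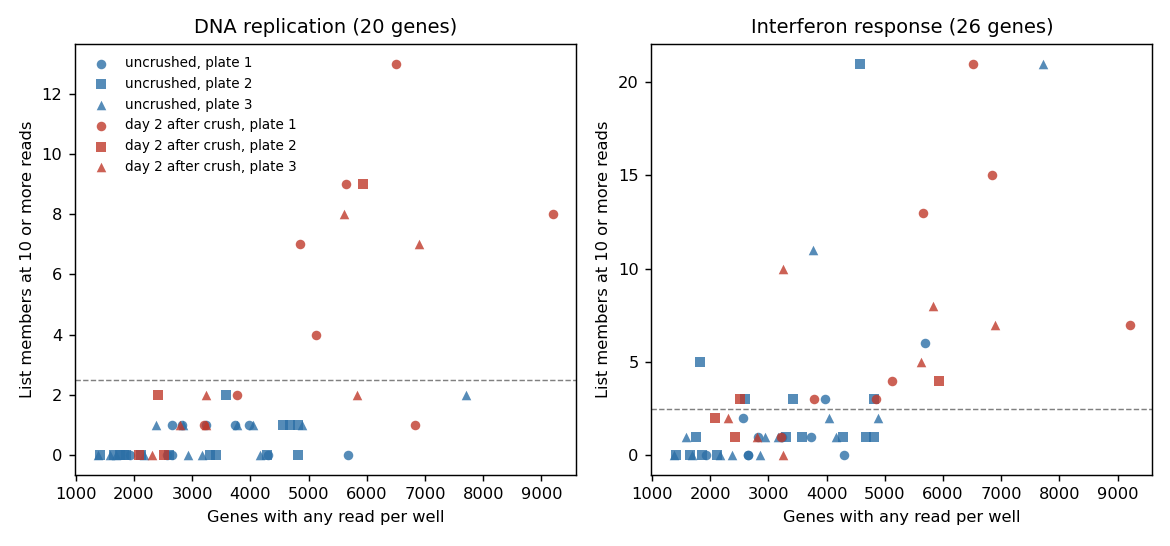
Number of DNA replication genes (left, of 20) and interferon response genes (right, of 26) at 10 or more reads against genes per well, for each kept well by group and plate. The dashed line divides wells with 3 or more. On the left only 8 day 2 wells lie above it. On the right 13 day 2 and 9 uncrushed wells do.

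Nuclear genes of the respiratory chain were higher over whole lists. Over all genes that passed, 89.4% were above 0, with a median of 1.16. Complex I feeds electrons into the mitochondrial respiratory chain, and complexes II to V pass them on and make ATP. All 20 measured nuclear genes of complex I were above 0 and all passed the detection rule, with a median of 2.24 (2.73, 1.48 and 1.90), and 10 of them were past a difference of 2. All 34 genes of complexes II to V were above 0 and passed, with a median of 2.02 (2.95, 1.69 and 1.29) and 15 past 2. Of these genes, 14 of complex I and 17 of complexes II to V passed through day 2 alone, so the counts past 2 cannot be read against the 15.3% of all genes. Among those that passed in uncrushed wells, 3 of 6 and 8 of 17 were past 2, with medians of 2.12 and 2.07. Over all genes that passed in uncrushed wells, 138 of 1232 were past 2, with a median of 0.73. Cox6b1, a subunit of cytochrome oxidase, differed by 3.83, with 5.88 on plate 1 but 0.68 on plate 2. Ndufv2, a core subunit of complex I, was at 0 to 1369 RPM (median 110) at day 2 and 0 to 1504 (median 0) in uncrushed wells, a difference of 3.57 (4.50, 1.44 and 3.81). The deposited table lists no gene of the mitochondrial genome, so its own subunits were not measured.

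Of 16 glycolysis genes 14 were above 0, with a median of 1.04. Over all genes that passed, 89.4% were above 0, with a median of 1.16. Of the 10 glycolysis genes that passed, 5 were past 2: Aldoa, Tpi1, Gapdh, Eno1 and Ldha. Of these only Tpi1 passed through day 2 alone. Among the 6 that passed in uncrushed wells 4 were past 2, with a median of 2.23. Over all genes that passed there it was 138 of 1232, with a median of 0.73. Gapdh was at 1.53 to 6122 RPM at day 2 (median 549) and 0 to 2752 in uncrushed wells (median 143), and differed by 2.48 (3.02, 3.06 and 1.28). Tpi1 differed by 2.96 (1.13, 4.63 and 3.66), with 8 of 19 against 4 of 38 wells. The glucose importer gene Slc2a1 and the lactate exporter gene Slc16a3 were at -0.21 and -0.12 and were detected in few wells.

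The proteasome, which degrades tagged proteins, was likewise above 0 in every member, where 89.4% of all genes that passed were above 0. All 15 measured Fc and ITAM receptor genes were above 0 too, with a median of 0.91. The 27 measured proteasome genes had a median of 2.05 (2.18, 1.26 and 2.27), and 12 of the 21 that passed were past 2. All 12 passed through day 2 alone, so this count is a description only. They included core subunits (Psma7, Psmb2) and lid or base subunits (Psmc3 at 3.25, Psmd4 at 2.92). Psmd4 was held by 8 of 19 against 2 of 38 wells. Endoplasmic reticulum chaperones had a median of 1.03 over 20 genes, with 5 of the 15 that passed past 2, and cytosolic chaperones 1.13 over 23 genes, with 5 of 16. Of these, 3 and 5 passed through day 2 alone. Ribosomal protein genes had a median of 1.16 over 28 genes, equal to that of all genes, with 5 past 2 (17.9%). All 28 passed in uncrushed wells. Over all 1232 genes that passed there the median was 0.73, and 138 were past 2.

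**Figure D5:**
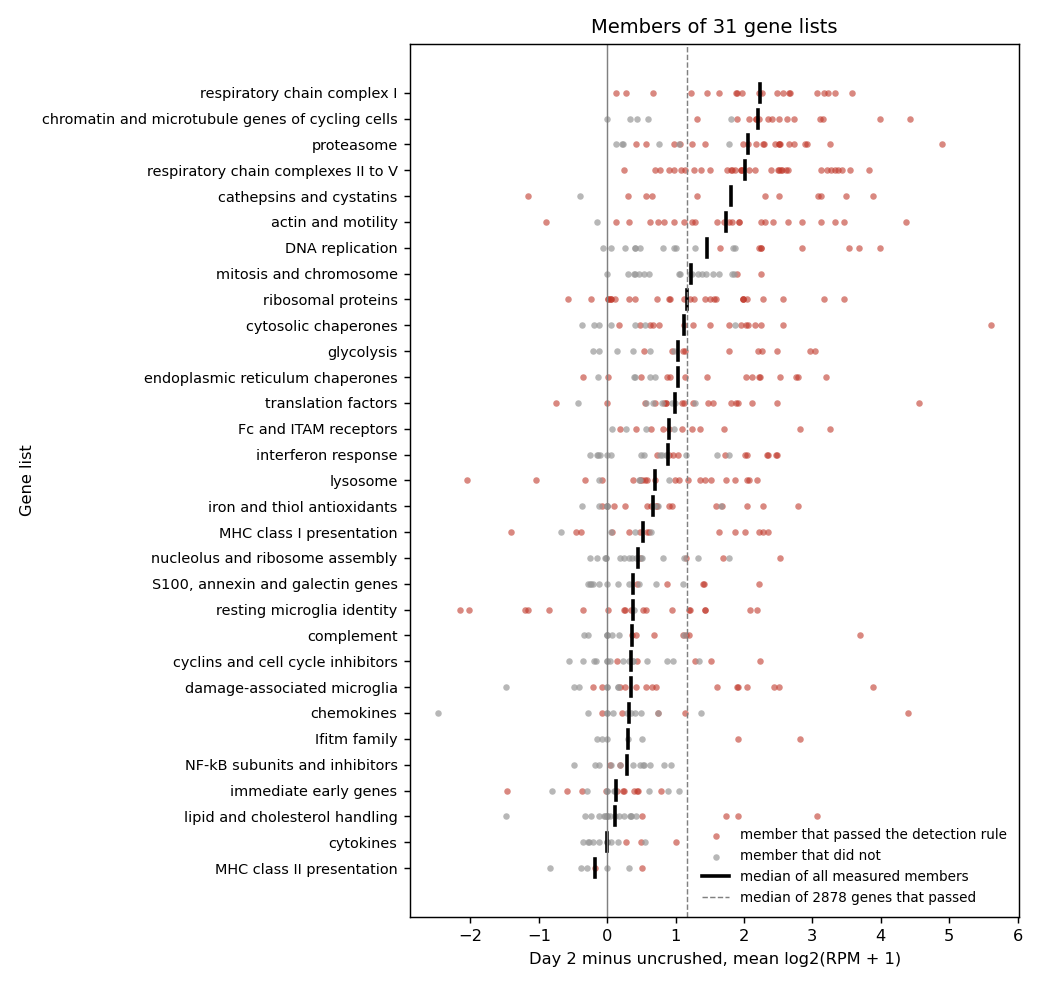
Day 2 minus uncrushed difference of each measured member of 31 gene lists (rows), in red where the member passed the detection rule and in grey where it did not, with a bar at the median of all measured members. The dashed line is the median of 1.16 over the 2878 genes that passed. Both respiratory chain lists, the proteasome and the chromatin list have their bars right of it, and resting microglia genes spread on both sides of 0.

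Lysosomal proteases and their inhibitors were mixed. Of 12 cathepsins and cystatins 10 were above 0 (median 1.81), and 5 of the 11 that passed were past 2, of which 2 passed through day 2 alone. Cst7, which encodes cystatin F, an inhibitor of lysosomal proteases that activated microglia make, was at 0 to 13339 RPM at day 2 (median 3.83) and 0 to 5937 in uncrushed wells (median 0). It was held by 9 of 19 wells (47.4%, 24.4 to 71.1) against 1 of 38 (2.63%, 0.0666 to 13.8) and differed by 3.88 (4.42, 3.69 and 3.99), nearly evenly over the plates. Cstb, a cytosolic cystatin gene, was also even (3.37, 3.68 and 3.03). Ctsz, a cathepsin, was held by all 19 day 2 wells and 27 of 38 uncrushed wells, at medians of 2419 and 1663 RPM, with a difference of 2.51. Cst3, the abundant secreted cystatin of resting microglia, went the other way, as given below.

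Genes of the damage-associated state of microglia did not move as a block. Of 22 measured genes 15 were above 0 and 7 below, with a median of 0.34. Those past 2 were Cst7, Ctsz, Cd63 and Cd68, all of lysosomes or endosomes. Apoe, a leading gene of that state, was at -1.48 and was held by 10.5% of day 2 and 15.8% of uncrushed wells. Spp1, Itgax and Gpnmb were at -0.42, -0.48 and -0.01. Itgam, the integrin of complement receptor 3 on microglia, differed by 3.69 (4.75, 4.37 and 1.48), and the complement genes C1qa, C1qb and C1qc by 0.37, 0.41 and 1.11.

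Interferon-stimulated genes, which restrain viral replication, had medians above 0 on plates 1 and 3 but not on plate 2. Of 26 measured genes 21 were above 0 and 5 below, with a median of 0.89 (2.17, -0.37 and 0.89). Of the 11 that passed, 5 were past 2, and 4 of these 5 passed through day 2 alone, so the count is not read against the 15.3% of all genes. Ifi27l2a was at 0 to 6201 RPM at day 2 (median 294) and 0 to 2625 in uncrushed wells (median 1.98) and differed by 2.48 (4.99, 1.30 and 0.94). Rtp4 differed by 2.47, the RNA sensor gene Ddx58 by 2.36 and Isg15, a ubiquitin-like protein gene, by 2.34 (3.65, 0.26 and 2.25). Ifitm3, which blocks viral entry, differed by 2.81 (3.86, 0.89 and 3.50), with 14 of 19 against 12 of 38 wells. The regulator gene Irf7 was at 1.15, and Ifit1, Ifit2 and Rsad2 at 0.05, 0.00 and -0.25.

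Unlike the replication genes, interferon-stimulated genes were present in single uncrushed wells at full strength. At least 3 of the 26 reached 10 reads in 13 of 19 day 2 wells (68.4%, 43.4 to 87.4) and 9 of 38 uncrushed wells (23.7%, 11.4 to 40.2). By plate it was 7 of 8, 2 of 4 and 4 of 7 at day 2 and 2 of 10, 5 of 15 and 2 of 13 in uncrushed retina. The most in a well was 21 of 26 in both groups, in 1 day 2 well and 2 uncrushed wells. All 8 day 2 wells with replication genes also met the interferon rule. In day 2 wells that met it the median was 5650 genes, against 2609.5 in the others.

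Promoters of a pair of these genes show the interferon-stimulated response element, here searched as GAAA, any 2 bases and GAAA again on both strands and marked in capitals. They are Isg15 (chr4:156200819-156201068, minus strand) and Ifit3 (chr19:34583279-34583528, plus strand).
Isg15: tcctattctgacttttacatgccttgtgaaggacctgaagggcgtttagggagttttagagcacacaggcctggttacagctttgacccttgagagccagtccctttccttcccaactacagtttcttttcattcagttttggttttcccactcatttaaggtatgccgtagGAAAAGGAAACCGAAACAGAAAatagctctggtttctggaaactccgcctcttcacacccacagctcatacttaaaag
Ifit3: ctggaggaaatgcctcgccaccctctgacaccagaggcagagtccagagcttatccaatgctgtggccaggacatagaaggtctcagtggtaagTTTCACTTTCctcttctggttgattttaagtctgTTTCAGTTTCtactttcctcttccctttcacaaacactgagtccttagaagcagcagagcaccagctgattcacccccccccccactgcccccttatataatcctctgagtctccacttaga
In Isg15 overlapping matches begin at -78, and in Ifit3 separate matches begin at -156 and -122. Of the 18 interferon response genes in the promoter table, 8 (44.4%) held a match, against 3.46% of all genes in it. Of the genes past 2 with the same sign on every plate, Isg15 held a match, Ddx58 did not and the rest were not searched. Ifit3 differed by 2.04, with 4.85, -1.16 and 1.70 within the plates.

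Few genes were lower at day 2, and these included receptors and secreted proteins of resting microglia. The 6 genes past -2 were Siglech, Rgs10, Scpep1 and the pseudogenes Gm29216, Gm13340 and Gm11512, whose reads can come from near-identical copies. Siglech, a sialic acid-binding lectin of microglia (chromosome 7, 55768178 to 55778925, plus strand), was at 0.948 to 4371 RPM at day 2 (median 95.1) and 0 to 13731 in uncrushed wells (median 1166). Its mean was 6.70 ± 4.23 (SD over 19 wells) against 8.85 ± 3.76 (SD over 38 wells), a difference of -2.15 with -0.75, -1.33 and -3.29 within the plates. It reached 10 reads in 10 of 19 (52.6%, 28.9 to 75.6) against 28 of 38 wells (73.7%, 56.9 to 86.6). At a threshold of 1 read the share of wells was 5.26 percentage points higher at day 2. In wells with 10 or more reads its median was 1606 RPM at day 2 and 1891 RPM in uncrushed retina.

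Rgs10, which shortens G protein signals in microglia, was at a median of 388 RPM at day 2 and 882 RPM in uncrushed wells, with maxima of 5162 and 6713. It differed by -2.02, evenly over the plates (-1.81, -2.48 and -2.55). Scpep1, a lysosomal carboxypeptidase gene that overlaps the antisense model Scpep1os, was held by 2 of 19 against 11 of 38 wells and differed by -2.05, nearly evenly over the plates (-2.49, -2.27 and -2.54). Cst3 was the highest of these genes in both groups. It was at 6717 to 86454 RPM at day 2 (median 26614) and 5170 to 245556 RPM in uncrushed wells (median 66730). Its difference of -1.16 (-0.87, -1.69 and -0.86) compares with SDs of 0.96 and 1.19 over wells.

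Csf1r, whose protein binds CSF1 and keeps microglia alive, was at 7.65 to 37237 RPM at day 2 (median 2302) and 9.88 to 17604 RPM in uncrushed wells (median 4411), a difference of -1.20 (-0.70, -2.51 and -1.35). It was held by 17 of 19 and 31 of 38 wells at 10 reads, while at 50 reads its share was 15.8 percentage points lower at day 2. The iron carrier gene Trf differed by -1.43 and was negative on each plate. Jun, an immediate early transcription factor gene that overlaps Junos, differed by -1.47 (-1.73, -3.69 and -0.57), with 4 of 19 against 12 of 38 wells. Of the rest of the 15 lowest, Srp9 (protein targeting), Nisch, Pnrc1 and Dst (a cytoskeletal linker) were at -1.78, -1.64, -1.56 and -1.50 and were held by 1 to 3 day 2 wells and 10 or 11 uncrushed wells. H2-T22, Sdf4, Mpeg1 and Ivns1abp were at -1.01, -1.01, -0.95 and -0.65.

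The list of 20 resting microglia genes was divided, not uniformly lower. Its median was 0.37 over all members (0.31, -1.22 and 0.34 within the plates), with 14 above 0 and 6 below. The 19 members that passed had a median of 0.35, which was 0.80 below that of all genes. It was below that of all genes under each of 15 other settings as well. Of the 19 members 17 passed in uncrushed wells, against 1232 of all 2878 genes, so the detection rule enters this gap. Those 17 had a median of 0.26, against 0.73 for the 1232 genes. Lower members were Siglech, Rgs10, Csf1r, Cst3, the sugar transporter gene Slc2a5 at -0.85 and the fractalkine receptor gene Cx3cr1 at -0.35. P2ry12 and Tmem119 were at 0.35 and 1.21, and Fcrls and Olfml3 at 2.19 and 2.09. For Olfml3 this came from plate 1 (4.69, 0.71 and 0.03). The median of the members that passed was below 0 under 5 of the 15 settings. Among them it was -0.63 with all deep wells kept and -0.34 with wells matched in genes. It was 1.02 without wells of neutrophil or rod markers.

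Signalling genes of inflammation were divided, and most of them were detected in few wells. Of 14 cytokine genes 6 were above 0 and 6 below, with a median of 0, and of 16 chemokine genes 11 were above 0 and 3 below (median 0.32). Besides Ccl12, the chemokine Ccl3 stood out as lower, at -2.48 with -3.05, -3.13 and -2.02 within the plates, but it was held by 10.5% of day 2 and 23.7% of uncrushed wells and so did not pass the detection rule. It was chosen after its values were seen. Gpr84, a receptor for medium-chain fatty acids named in the study's title, was held by 6 of 19 (31.6%, 12.6 to 56.6) against 5 of 38 wells (13.2%, 4.41 to 28.1), at 1.15 with 1.11, -1.02 and 2.42 within the plates. Tnf and Il1a were at 0.55 and 0.49, and both were negative on plate 2 (-1.15 and -2.20). Immediate early genes had a median of 0.12 over 20 members, and genes of antigen presentation on MHC class II a median of -0.18 over 7.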

How the data were processed

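The files hold 1 deposited table of FPKM (fragments per kilobase of gene and per 1000000 assigned reads) for 55364 genes in 144 wells, which the authors computed from reads assigned to genes. Per the submitters' processing notes, the tools were Trim Galore 0.4.4, Trimmomatic 0.36, cutadapt 1.16, STAR 2.7.2b and featureCounts 1.6.1 with GRCm38.p6 (mm10). Per the labels' protocols, complementary DNA of each lysed cell was amplified and made into Nextera XT libraries. No molecular identifiers are described, so reads are not independent molecules, and the strand setting is not given in the sources used here.

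FPKM times gene length in kilobases gave RPM, and 1000000 divided by the most frequent RPM above 0 of a well, at 6 digits, gave its reads. Only 35.6% of values up to 20 reads were whole within 0.01, so no count test was run and reads serve for depth and detection. Groups came from the titles. Each group counts as 1 sample, so differences of mean log2(RPM + 1) are given without a test. Genes named were the 15 highest and 15 lowest with 1 sign on all 3 plates, the 8 largest gains and losses in share of wells, up to 4 per list, and Gpr84, Tnf, Il1a and Rhoa. Further list members named describe their lists and were chosen after their values were seen. Left out of the first groups were unnamed models, ribosomal protein genes, small RNA genes and pseudogenes. Members and lists were chosen with earlier results of these data known. There were 32 lists, 31 of which had members that passed the detection rule; the list of mitochondrial genome genes had none in the table. Symbols of the lists were matched by name or, through a table of gene IDs, by ID. No 2 wells held identical values. Alternatives were a pseudocount of 10 or 0.1 RPM, other filters on genes and wells, thinning, scaling, plates and the ratio of means. Scripts were tested on simulated data. Tools were matplotlib 3.10.9, scipy 1.17.1, pandas 2.3.3 and numpy 2.4.6 under Python 3.11.15.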

Additional observations from a re-analysis of the deposited data

How the results depend on the processing

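The 15 highest genes stayed above 0 and the 15 lowest below 0 under each of 14 alternatives, except Sdf4, which was at 0.08 by the log2 ratio of mean RPM. These genes were picked from the same wells for large differences with 1 sign on all 3 plates. Equal weighting of plates therefore could not change their sign, and leaving out a plate hardly could. The kept signs are a description and not support. The number of genes past the thresholds was less stable. With a pseudocount of 10 RPM it was 65 higher and 2 lower, and with 0.1 RPM 875 and 11. By the log2 ratio of mean RPM it was 210 and 19, and with all deep wells kept 251 and 12. Without plate 1 the lower genes numbered 14. Without plate 2 and without plate 3 the higher genes numbered 742 and 773. The median over all genes was 0.069 with no detection filter, 0.35 by the log2 ratio of mean RPM and 1.02 after scaling on commonly detected genes.

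Some alternatives were chosen after seeing the data. With detection counted over both groups together 242 genes were higher. With day 2 wells matched to uncrushed wells in genes per well, medians still differed, at 4853 and 3161, and 352 genes were higher and 19 lower. Without the deepest day 2 well the counts were 369 and 6. The count of wells with 3 or more replication genes and its alternatives were also chosen then: these wells numbered 14 and 11 at 1 read, 9 and 2 after thinning, 5 at day 2 without wells of neutrophil or rod markers and 3 without plate 1.

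At 1 read the difference in share of wells changed sign for Siglech (5.26 percentage points), Mpeg1 (5.26), H2-T22 (2.63) and Sdf4 (-18.4), and at 50 reads for Csf1r (-15.8) and Trf (2.63). It became 0 for Tnf at 1 read and for Ivns1abp at 50 reads. Over members that passed detection, many through day 2 alone, the medians of DNA replication, chromatin, proteasome, respiratory chain, glycolysis and interferon genes lay above that of all genes in all 16 settings. The same held for actin, Ifitm and both lists of chaperone genes, and for mitosis genes in the 14 settings that gave them a median. Passing through day 2 alone makes such a median likely, so this is a description and not support. Over all measured members, interferon and glycolysis genes had medians of 0.89 and 1.04, below 1.16. Of 463 list medians 29 changed sign, in 8 lists: MHC class I and II, NF-kB, complement, immediate early, iron and thiol, resting microglia and ribosomal protein genes. The cause was not tested. RPM without mitochondrial genes was not run, because the table holds none. No paired analysis was possible because no label pairs wells or animals. With the differences of the 3 plates weighted equally, 420 genes were higher and 7 lower.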
